A study of Mus musculus with 6 samples.

Results

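The genes described here encode the proteins that license replication origins and run the replication fork. The list holds 49 genes, chosen by function but with earlier results of these data known. All 49 were measured, out of 18193 genes with a probe set of their own and 45037 probe sets tested. Where a gene has several probe sets, the brightest over the 6 arrays was read. No filter on low values was applied, and all 49 of these probe sets had a mean level above the array median. The genes were described in 7 groups, which were licensing, the MCM helicase, helicase activation, polymerases and primase, the clamp and its loader, RPA with Okazaki fragment processing, and fork protection.

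The arrays hold RNA of retinal progenitor cells (RPCs) sorted by GFP from eyes of ICR mouse embryos at E12, embryonic day 12. The 3 control pools came from α-Cre embryos with wild-type Pax6 and the 3 mutant pools from Pax6 flox α-Cre embryos. The methods give the mutant genotype as Pax6 loxP/loxP, with both alleles floxed. Each pool held about 1800000 cells and was put on 1 array. How many embryos made up a pool is not stated in the labels or methods. Both groups carry α-Cre, a transgene in which Pax6 regulatory DNA (its P0 promoter, with the α enhancer active in peripheral retina) drives Cre together with GFP, so the sort on GFP was aimed at distal RPCs, and the Pax6 flox allele loses its start codon and paired domain exons where Cre acts. The values are RMA intensities (background-corrected, between-array normalised summaries of a probe set's probes), used here as log2, and a log2 difference (the log2 fold change) is the mutant mean minus the control mean. Genes called lower or higher met 3 limits, a change of 1.5-fold or more, an unadjusted p below 0.05 and a p below 0.10 from limma after Benjamini-Hochberg adjustment over all probe sets, while lower or higher alone refers to the adjusted p under 0.10.

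Before S phase, the origin recognition complex (ORC), Cdc6 and Cdt1 load the MCM helicase onto origins, which is termed licensing, and geminin blocks Cdt1 once S phase has begun. The kinase Cdc7 with Dbf4, together with Mcm10, Cdc45 and the GINS complex, then turns the loaded helicase on. At the moving fork, DNA polymerase α with primase starts each strand, the clamp loader RFC places the sliding clamp PCNA, polymerases ε and δ extend, RPA covers single strands, and Fen1, RNase H2 and Lig1 finish the Okazaki fragments. Timeless, Tipin, claspin and Wdhd1 hold the helicase and the polymerases together. Many of these genes are known targets of E2F factors and are transcribed mainly as cells enter S phase, and in the retina they mark cycling RPCs.

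The promoters of the members were searched for the letters of the E2F core, TTCCCGC or TTGGCGC on either strand, in the 250 bases before and the 50 after each RefSeq start (build GRCm38.p6). Of 40 members with a promoter entry, 23 held the core (57.5%), against 7.79% of 27025 genes. These 27025 include genes that were not measured, whereas all members were. Among measured genes other than the members, 1662 held the core and 12750 did not. GGGCGG, an Sp1 type of motif, was in 30 of the 40 (75%, against 38.2% of genes), CCAAT in 24 (60%, against 41.1%) and TTTGAA in 7 (17.5%, against 20.2%). The E2F core and CCAAT can share letters, as they do in Prim1, the comparison is not matched for base composition, and a match is only a description of the letters. Sites of the 4 members with the lowest log2 differences among those with a match are given here, 5′ to 3′ on the gene's strand, with the E2F core letters in capitals. For Pole2 and Wdhd1 the match lies after the start, and 10 bases on either side of it are given. For Prim1 and Mcm7 it lies before the start, and the 250 bases up to the start are given. The Pole2 site is chr12:69228164-69228190 (minus strand), that of Wdhd1 chr14:47276822-47276848 (minus strand), the Prim1 promoter chr10:128014965-128015214 (plus strand) and the Mcm7 promoter chr5:138171884-138172133 (minus strand).
Pole2: gtcggcggtgGCGCCAAatcgcgaaca
Wdhd1: gcgccagagcGCGGGAAgcggctccgt
Prim1: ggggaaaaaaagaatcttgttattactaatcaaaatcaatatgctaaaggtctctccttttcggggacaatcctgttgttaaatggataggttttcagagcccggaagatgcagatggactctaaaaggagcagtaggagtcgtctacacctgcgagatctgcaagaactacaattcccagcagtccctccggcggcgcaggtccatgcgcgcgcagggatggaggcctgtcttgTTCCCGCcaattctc
Mcm7: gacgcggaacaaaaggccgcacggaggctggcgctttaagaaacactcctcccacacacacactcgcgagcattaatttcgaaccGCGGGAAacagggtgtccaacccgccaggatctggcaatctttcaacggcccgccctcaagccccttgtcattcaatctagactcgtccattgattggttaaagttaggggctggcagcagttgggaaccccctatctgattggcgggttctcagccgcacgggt

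The core begins 11 bases after the start in Pole2, 20 bases after it in Wdhd1, 15 bases before it in Prim1 and 165 bases before it in Mcm7, which has 1 more match after the start. Members with and without the core had values of similar size, and the difference was not tested. The 23 members with it had a median log2 difference of -0.30, with 14 at an adjusted p under 0.10, and the 17 without it had one of -0.34, with 12. Among measured genes other than the members, 9.87% of 1662 with the core were lower, against 4.53% of 12750 without it. That difference was not tested either. Timeless and Clspn, a pair with large falls, had no match in this window.

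In the Pax6 mutant RPCs most genes of the list were lower, each by a small amount. Of 49 members, 48 had a negative log2 difference, against 52.9% of all genes, and the median was -0.33, against -0.01 over all genes. At an adjusted p under 0.10 from limma, 33 members were lower and none was higher, while 5.22% of all genes were lower and 7.15% were higher, and 39 members had an unadjusted p under 0.05. The fold change of 1.5 was reached by 2 members, Pole2 and Timeless, and 0.918% of all genes were called lower. On 43 members the highest mutant array was under the lowest control array, as on 16.4% of all genes. The SD within a group of 3 arrays ran from 0.01 to 0.16 over the members, and the standard errors of the log2 differences from 0.06 to 0.09. The arrays come from whole sorted pools, in which fewer cells in S phase and less RNA per cell cannot be told apart. Many markers of other cells of the eye were higher in the mutant pools, as described below. Their part in the lower values was not tested.

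**Figure D1:**
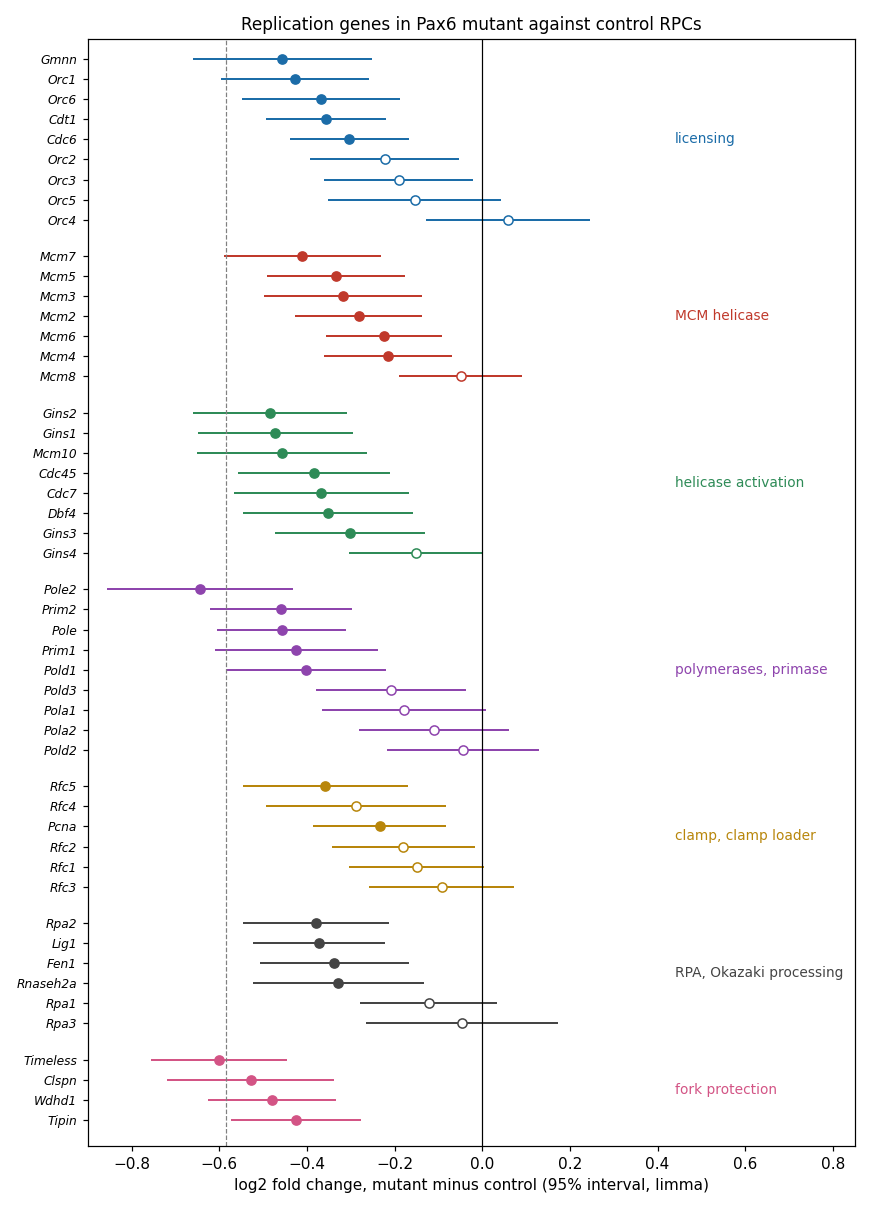
Log2 fold change of the 49 replication genes, mutant minus control, by group. Points are the estimates and bars their 95% intervals from limma, filled points have an adjusted p under 0.10, and the dashed line marks a 1.5-fold fall. All points but that of Orc4 lie left of 0, and those of Pole2 and Timeless lie left of the dashed line.

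The 3 mutant arrays were alike. Averaged over the 49 members, mutant replicates 1, 2 and 3 differed from the control mean by -0.28, -0.33 and -0.31 on the log2 scale, and control replicates 1, 2 and 3 by -0.02, 0.02 and 0.0042. A mutant array was the lowest of the 6 for 47 members, mutant replicate 2 for 25 of them, replicate 3 for 14 and replicate 1 for 8. The highest array was a control array for all members but 1, and which one it was varied, with replicate 1 for 14, replicate 2 for 18 and replicate 3 for 16. With all 6 arrays, 33 members and 5.22% of all genes were lower at an adjusted p under 0.10. Fits without 1 array have fewer arrays, and the count of members fell by an amount that varied with the array left out. It was 28 without control replicate 1, 21 without control replicate 2, 25 without control replicate 3, 20 without mutant replicate 1, 15 without mutant replicate 2 and 16 without mutant replicate 3, while 3.77%, 3.00%, 3.63%, 2.19%, 2.13% and 2.29% of all genes were then lower.

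**Figure D2:**
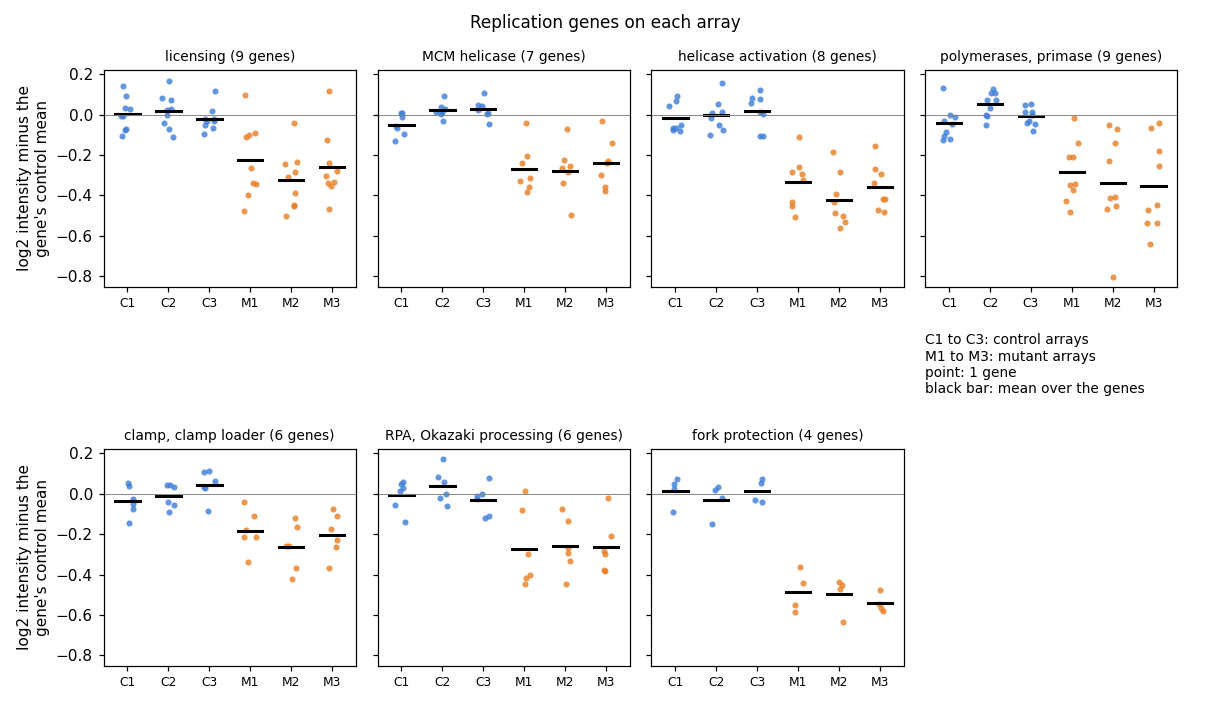
Log2 intensity of each member minus its own control mean (vertical axis) on the 3 control arrays (blue) and the 3 mutant arrays (orange), by group. Points are genes and black bars their mean, and in each group the bars of the mutant arrays lie below those of the control arrays, at -0.18 to -0.54.

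Among the 9 licensing genes, 5 were lower at an adjusted p under 0.10, and the median log2 difference was -0.30. Gmnn, which encodes geminin, the inhibitor of Cdt1, had log2 levels of 8.82, 9.05 and 8.79 in the control pools and 8.49, 8.38 and 8.42 in the mutant pools. The groups did not overlap, and the log2 difference was -0.46 (standard error 0.09, adjusted p = 0.0313 from limma). Cdt1 and Cdc6, which load the helicase with ORC, were lower too, with log2 differences of -0.36 and -0.30. A dimmer Cdt1 probe set, above the array median, did not pass (-0.23, adjusted p = 0.122 from limma). Within ORC, Orc1, an ATPase subunit whose level is known to follow the cell cycle, had a log2 difference of -0.43 (adjusted p = 0.0214) and Orc6 one of -0.37 (adjusted p = 0.0411).

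The other ORC subunits did not pass by their brightest probe sets. Orc2, Orc3 and Orc5 had log2 differences of -0.22, -0.19 and -0.15, with adjusted p values of 0.133, 0.189 and 0.343 from limma. A dimmer Orc2 probe set, above the array median, did pass (-0.28, adjusted p = 0.0437). Another Orc2 probe set, brighter than that one, did not (-0.17, adjusted p = 0.246). Orc4 was the only member with a positive value. It had log2 levels of 7.15, 7.18 and 7.33 in the control pools and 7.32, 7.18 and 7.34 in the mutant pools. These overlapped, and the log2 difference was 0.06 (95% interval -0.13 to 0.24, adjusted p = 0.723). Gmnn had an adjusted p of 0.109 without mutant replicate 2, 0.102 without mutant replicate 3 and 0.129 without moderation of the variance, whereas Orc1 stayed under 0.10 in every alternative run and Orc6 in 11 of 16.

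All of Mcm2 to Mcm7, the subunits of the replicative helicase, were lower at an adjusted p under 0.10. Their log2 differences were -0.28 for Mcm2, -0.32 for Mcm3, -0.21 for Mcm4, -0.33 for Mcm5, -0.22 for Mcm6 and -0.41 for Mcm7. The Mcm7 probe set was at 10.905, 11.094 and 11.004 in the control pools and 10.643, 10.503 and 10.624 in the mutant pools, which did not overlap. This was 1.33-fold lower (standard error of the log2 value 0.07, adjusted p = 0.0286 from limma). Mcm5 was at 9.45, 9.53 and 9.56 in control and 9.13, 9.26 and 9.15 in mutant RPCs, also without overlap (adjusted p = 0.0368).

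Mcm8, which is not part of that helicase and acts in recombination repair, had a value nearer 0 than Mcm2 to Mcm7 by the brightest probe sets. It was at 5.55, 5.62 and 5.65 in the control pools and 5.56, 5.53 and 5.57 in the mutant pools, so that the groups overlapped. Its log2 difference was -0.05 (95% interval -0.19 to 0.09, adjusted p = 0.685 from limma), and the difference from the other MCM genes was not tested. Dimmer probe sets of Mcm2, Mcm4 and Mcm6, above the array median, had log2 differences of -0.11, -0.049 and -0.12. Mcm4 stood at the threshold with an adjusted p of 0.0998. Mcm5 was not under 0.10 without mutant replicate 1 (0.123) or mutant replicate 3 (0.120), nor Mcm7 without moderation of the variance (0.109). The rest of the helicase genes held less often, with an adjusted p under 0.10 in 10 of 16 alternatives for Mcm2, 9 for Mcm3, 8 for Mcm6 and 4 for Mcm4, and none of these 4 held with the replicate number as a block.

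Of the 8 genes that turn the loaded helicase on, 7 were lower at an adjusted p under 0.10. The median log2 difference over the 8 was -0.38. On all 8 the mutant arrays lay below the control arrays, as on 43 of the 49 members and 16.4% of all genes. Gins2, a GINS subunit, was at 7.47, 7.39 and 7.27 in control and 6.87, 6.84 and 6.96 in mutant RPCs. Its log2 difference was -0.48 (standard error 0.07, adjusted p = 0.0165 from limma). Gins1 and Gins3, which encode further GINS subunits, had log2 differences of -0.47 and -0.30, and Cdc45, the partner of GINS in the active helicase, one of -0.38 (adjusted p = 0.0320). Mcm10, which is needed for origin firing, had one of -0.46 (adjusted p = 0.0266).

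The kinase gene Cdc7 and its activator gene Dbf4 had log2 differences close to each other, -0.37 and -0.35. Gins4, the remaining GINS gene, was at 7.91, 7.77 and 7.85 in the control pools and 7.73, 7.65 and 7.68 in the mutant pools. These did not overlap but lay close, and the log2 difference of -0.15 did not pass (adjusted p = 0.239 from limma). Gins1 and Gins2 were under an adjusted p of 0.10 in every alternative run, Mcm10 and Cdc45 in 13 of 16, Dbf4 in 10 of 16, Gins3 in 9 of 16 and Cdc7 in 9 of the 15 that measured it. For Mcm10, the value rests on its brightest probe set, since its other probe sets lay below the array median and did not pass, with log2 differences of -0.28 and -0.01. A dimmer Cdc45 probe set, above the array median, did not pass either (-0.04, adjusted p = 0.732 from limma).

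The polymerase and primase genes had the widest range of values, with 5 of 9 lower at an adjusted p under 0.10, a median of -0.40 and a range from -0.64 to -0.04. Pole2, the B subunit of polymerase ε, was at 7.12, 7.15 and 7.08 in the control pools and 6.64, 6.31 and 6.48 in the mutant pools. It was 1.56-fold lower, the largest fall of the list, with a log2 difference of -0.64 (standard error 0.09, adjusted p = 0.0127 from limma). Pole, the catalytic subunit of the same polymerase, had a log2 difference of -0.46 (adjusted p = 0.0113). The catalytic and the large primase subunit genes, Prim1 and Prim2, had log2 differences of -0.42 and -0.46, and Pold1, the catalytic subunit of polymerase δ, one of -0.40 (adjusted p = 0.0330).

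The polymerase α genes Pola1 and Pola2, whose products form a complex with primase, had log2 differences of -0.18 and -0.11 and did not pass (adjusted p = 0.255 and 0.433 from limma). Their difference from the primase genes was not tested. The accessory δ subunit genes Pold3 and Pold2 had values of -0.21 and -0.04. Pold2 was at 7.62, 7.82 and 7.80 in control and 7.73, 7.68 and 7.71 in mutant RPCs. The mutant values lay within the control range, with a 95% interval of the log2 difference from -0.21 to 0.13. Pole2 remained under an adjusted p of 0.10 in every alternative run but fell short of 1.5-fold without mutant replicate 2 (-0.56), by the median of its probe sets (-0.38) and with 16 added to each value before log2 (-0.56). The other probe sets above the array median did not pass for Prim1 (-0.18, adjusted p = 0.262 from limma) or Prim2 (-0.09, adjusted p = 0.579). Pole was under an adjusted p of 0.10 in every alternative that measured it, Prim2 in 15 of 16, and Prim1 and Pold1 in 13 of 16.

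The clamp and clamp loader genes had a median of -0.21, and 2 of 6 were lower at an adjusted p under 0.10. It was the median nearest 0 of the 7 groups by the brightest probe sets, but by the median of a gene's probe sets it was -0.27, and those of MCM (-0.19), licensing (-0.23) and helicase activation (-0.26) were nearer 0. Pcna, the sliding clamp, was at 11.70, 11.70 and 11.57 in the control pools and 11.44, 11.40 and 11.43 in the mutant pools. Each mutant array was below each control array, and the fall was 1.18-fold (log2 difference -0.23, standard error 0.06, adjusted p = 0.0870 from limma). Rfc5, a small subunit of the loader, was at 7.76, 7.94 and 8.02 in control and 7.57, 7.54 and 7.54 in mutant RPCs, with a log2 difference of -0.36 (adjusted p = 0.0492).

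Rfc4, Rfc2 and Rfc1, which encode 2 further small subunits and the large subunit, had log2 differences of -0.29, -0.18 and -0.15 with adjusted p values of 0.112, 0.195 and 0.243 from limma. Rfc3 was at 7.77, 7.63 and 7.75 in control and 7.68, 7.55 and 7.64 in mutant RPCs. The groups overlapped (log2 difference -0.09, adjusted p = 0.50). Other probe sets gave larger falls for some of these genes, -0.38 for both Rfc1 (adjusted p = 0.0286) and Rfc4 (adjusted p = 0.0343). Pcna was over an adjusted p of 0.10 without any 1 array except control replicate 3, with values from 0.184 to 0.213, and Rfc5 was over it without any 1 array except control replicate 1, with values from 0.109 to 0.142.

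Of the 6 genes of RPA and Okazaki fragment processing, 4 were lower at an adjusted p under 0.10, with a median log2 difference of -0.33. Rpa2, the middle subunit of the single-strand binding complex, was at 8.33, 8.21 and 8.27 in the control pools and 7.86, 7.82 and 7.98 in the mutant pools. The groups were well apart (log2 difference -0.38, standard error 0.07, adjusted p = 0.0293 from limma). The ligase gene Lig1, the flap nuclease gene Fen1 and Rnaseh2a, the catalytic subunit of the enzyme that removes RNA primers, had log2 differences of -0.37, -0.34 and -0.33.

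The partners of Rpa2 were different in value. Rpa1, the large subunit, had a log2 difference of -0.12 (adjusted p = 0.342 from limma). Rpa3, the small subunit, was at 8.076, 8.305 and 8.012 in control and 8.146, 7.997 and 8.111 in mutant RPCs, which overlapped. Its log2 difference was -0.05 (95% interval -0.26 to 0.17, adjusted p = 0.819) and turned to 0.040 without control replicate 2. Rpa2 was just over an adjusted p of 0.10 without mutant replicate 1 (0.105) or mutant replicate 2 (0.1001), whereas Lig1 stayed under it in every alternative run, and Fen1 and Rnaseh2a in 9 of the 15 that measured them.

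All 4 fork protection genes were lower, with the largest median of the groups, -0.50. Timeless, which encodes the partner of Tipin in the fork protection complex, was at 7.77, 7.90 and 7.92 in the control pools and 7.28, 7.23 and 7.28 in the mutant pools. The gap between the groups was larger than the range within either, and the gene was 1.52-fold lower (log2 difference -0.60, standard error 0.06, adjusted p = 0.00676 from limma). A second Timeless probe set gave -0.62 (adjusted p = 0.0163). Tipin was at 9.12, 9.05 and 9.04 in control and 8.71, 8.63 and 8.59 in mutant RPCs, with a log2 difference of -0.42 (standard error 0.06, adjusted p = 0.0149). Clspn, the adaptor of the checkpoint kinase Chk1 at stalled forks, had a log2 difference of -0.53 and Wdhd1, which ties polymerase α to the helicase, one of -0.48 (adjusted p = 0.0106). All 4 had an adjusted p under 0.10 in every alternative run, but Timeless fell short of 1.5-fold when mutant replicate 2 (-0.58) or 1 of the control replicates 2 (-0.58) and 3 (-0.57) was left out, and with 16 added to each value (-0.55).

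The members have 101 probe sets of their own, and 34 members have more than 1. Of the 101, 96 had negative log2 differences and 51 were lower at an adjusted p under 0.10 from limma, as were 4.55% of all 45037 probe sets. Probe sets of 1 gene share their RNA and are not replicates. Leaving out the brightest of each gene and those at or below the array median, 38 were left, of which 36 were negative, 15 were lower and 1 was higher, with a median of -0.23. Mcm7 had negative values on all of its 4 probe sets, from -0.52 to -0.25, and Mcm3 on all of its 5, from -0.48 to -0.18. The second probe sets of Mcm2, Mcm4 and Mcm6 above the array median did not pass, with -0.11 (adjusted p = 0.40), -0.049 (0.70) and -0.12 (0.414). The probe set that was higher was 1 of Mcm5 (0.31, adjusted p = 0.0932), with a control level of 3.64 and a mutant level of 3.95 near the array median, while the 2 bright Mcm5 probe sets had -0.33 and -0.37.

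**Figure D3:**
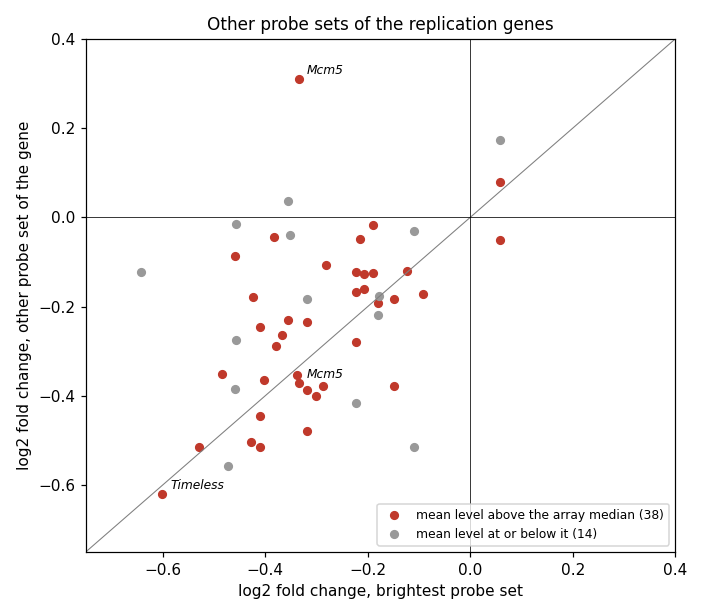
Log2 fold change of the 52 other probe sets of the replication genes (vertical axis) against that of the gene's brightest probe set (horizontal axis). Red points have a mean level above the array median and grey points at or below it, the diagonal marks equal values, and most points lie in the lower left of the plot, with 1 Mcm5 probe set at 0.31 apart from them.

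The rest of the replication machinery was looked at through a list of 30 further factors, of which 28 were measured. Of these, 7 were lower (against 5.22% of all genes) and 1 was higher (against 7.15%) at an adjusted p under 0.10 from limma. Of the 28, 2 were called lower (against 0.918% of all genes), 23 were negative (against 52.9%), and the median was -0.16. The largest falls were those of Ticrr, which brings Cdc45 to origins (log2 difference -0.63, adjusted p = 0.00661), Chtf18, of an alternative clamp loader (-0.62, adjusted p = 0.0113), and the cyclin E gene Ccne2 (-0.58, adjusted p = 0.0998). Ticrr and Chtf18 were the 2 that were called. Pold4, a small δ subunit, had the highest value, 0.26 (adjusted p = 0.163). The gene that was higher, named after its value was seen, was Pole4, a small subunit of polymerase ε, with log2 levels of 7.70, 7.54 and 7.59 in control and 7.84, 7.86 and 7.83 in mutant RPCs (log2 difference 0.23, adjusted p = 0.0927). The difference between the lists was not tested.

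Other lists of genes used in cycling cells were lower as well. Of all genes, 5.22% were lower at an adjusted p under 0.10. Of 13 measured genes of nucleotide synthesis and chromatin assembly, 8 were lower at an adjusted p under 0.10 from limma and the median was -0.27, with Asf1b at -0.55, Rrm2 at -0.52, Tyms at -0.46 and, as the highest, Dck at 0.02. Of 19 mitosis genes, 17 were lower and the median was -0.34, with Nusap1 at -0.59, Aurka at -0.53, Cenpf at -0.49 and, as the highest, Cdc20 at -0.22. The lists share the same 6 arrays, and no difference between them was tested.

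**Figure D4:**
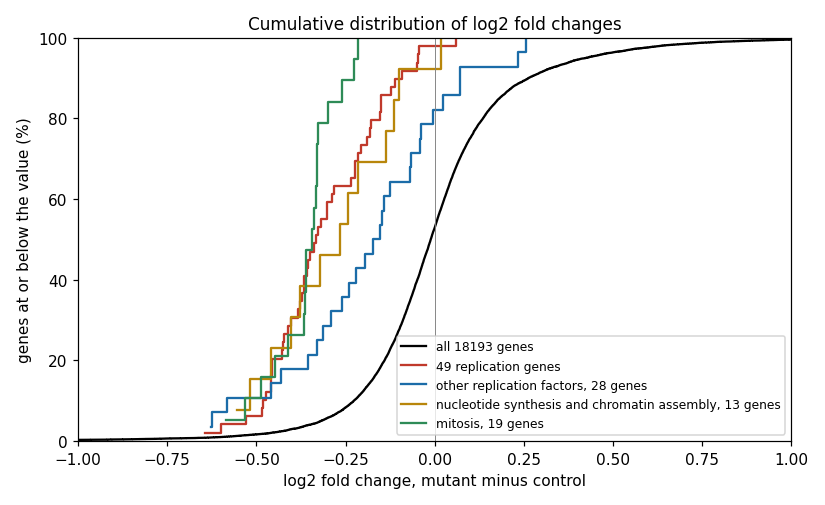
Cumulative share of genes (vertical axis, percent) at or below each log2 fold change, mutant minus control (horizontal axis), for all 18193 genes, the 49 replication genes and 3 further lists. The curves of the replication and mitosis genes rise almost wholly left of 0, with medians of -0.33 and -0.34, and that of the 28 other replication factors lies between them and all genes, with a median of -0.16.

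Checks of the arrays bear on all of these values. Of 5 Pax6 probe sets, 1 fell by 1.60 on the log2 scale (from 6.14 to 6.44 in control and from 4.45 to 4.88 in mutant RPCs, adjusted p = 0.00329 from limma), and the brightest had a log2 difference of -0.11. Which of them lie in the deleted part is not stated in the labels or files. RPC markers were bright in both groups, all 10 at mean log2 levels over 7 in each, and 5 of 10 were lower at an adjusted p under 0.10 (mean log2 level of 9.42 to 9.45 in control and 9.02 to 9.06 in mutant), namely Fgf15 (-1.43) and Sfrp2 (-0.98), which were called, and Six3 (-0.40), Rax (-0.38) and Ccnd1 (-0.30), whereas Six6 (-0.11), Lhx2 (-0.12), Sox2 (-0.19), Hes1 (0.06) and Pax6 did not pass. Markers of new neurons were lower, 6 of 11, with a mean log2 level of 5.10 to 5.75 on control and 4.46 to 4.79 on mutant arrays. Markers of other cells of the eye were present and higher in the mutant arrays at an adjusted p under 0.10, 11 of 12 for pigment epithelium (mean log2 level of 7.95 to 8.26 in control and 8.71 to 8.73 in mutant), 4 of 12 for lens and surface ectoderm (6.58 to 7.20 and 7.47 to 7.51), 6 of 11 for mesenchyme and neural crest (5.18 to 5.26 and 5.79 to 6.17) and 7 of 10 for endothelium (5.90 to 6.38 and 6.73 to 6.84), and 1 of 9 for blood and macrophages. Of these, 7, 2, 6, 4 and 1 were called higher, as were 2.28% of all genes. At an adjusted p under 0.10, 5.22% of all genes were lower and 7.15% higher. The part of the markers of other cells in the lower values of the replication genes was not tested.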

How the data were processed

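RNA of sorted RPC pools was hybridised to Affymetrix mouse genome arrays, 1 array per pool. The authors deposited linear intensity values per probe set, background-corrected, normalised between arrays and summarised by RMA, and no version is stated in the labels or methods. Of 45101 probe sets, 64 controls were left out. The values were taken as log2, with no further scaling. Of the 45037 left, 34945 have 1 gene symbol, 932 several and 9160 none in the platform annotation used. Probe sets with several symbols named no gene.

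Mutant and control (3 arrays each) were compared with limma 3.58.1 in R 4.3.3 (lmFit and eBayes) over all 45037 probe sets, with Benjamini-Hochberg adjustment over all of them. Each of 18193 genes was then read by its brightest probe set. The code of the fit was run on simulated arrays with known changes and independent noise, a check that does not cover the real pools. A p-value measures only the spread between pools, and the number of arrays limits the precision. Array values are given for the members with the largest and smallest absolute log2 fold change in each of the 7 groups, those called, those with a positive value, those with another probe set that moved oppositely, and Mcm7 and Pcna. The members, gene lists and tests were chosen with earlier results of these data known. Promoters are RefSeq (GRCm38.p6), with 40 of 49 members matched by symbol. The 16 alternatives changed the arrays, scaling, filter, probe set, variance model or log scale.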

Additional observations from a re-analysis of the deposited data

How the results depend on the processing

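In each alternative that measured them (43 members in 1 of the 16, all 49 in the others), 47 members had a negative log2 fold change, and the exceptions were Rpa3, which ran from -0.11 to 0.040 leaving out 1 array (0.040 without control replicate 2), and Orc4, which was positive in all fits but that at -0.050 with the _s_at, _x_at and _a_at probe sets left out. Leaving out 1 array at a time, the number of members at an adjusted p under 0.10 ran from 15 to 28, the number called from 0 to 2, and the median over the members from -0.35 to -0.31. The group medians ran from -0.32 to -0.29 for licensing, -0.31 to -0.26 for MCM, -0.43 to -0.34 for helicase activation, -0.46 to -0.35 for polymerases and primase, -0.23 to -0.19 for clamp and loader, -0.34 to -0.30 for RPA and Okazaki processing and -0.53 to -0.48 for fork protection. These fits have fewer arrays. Without moderation of the variance 17 members passed, as did 2.24% of all genes in the same direction, and the cause was not tested. By the median of a gene's probe sets, which brings in dim ones, 1 member was called, and the medians were -0.30 for all members, -0.23 for licensing, -0.19 for MCM, -0.26 for helicase activation, -0.30 for polymerases and -0.27 for the clamp. With the _s_at, _x_at and _a_at probe sets left out they were -0.29 for all members, -0.23 for licensing, -0.29 for polymerases and -0.25 for RPA, over 43 members. With 16 added to each value, which shrinks all differences, none was called, and the medians were -0.34 for helicase activation and -0.45 for fork protection, while 40 members and 8.01% of all genes were lower at an adjusted p under 0.10.

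Whether same-numbered pools were collected or processed together is not stated in the labels or methods. Deviations of same-numbered arrays from their group means correlated at -0.0106, -6e-04 and -0.0085, which shows no shared deviation but cannot exclude pairing. With the replicate number as a block, 24 members and 3.17% of all genes were lower at an adjusted p under 0.10 and 2 members were called.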
